A study of Mus musculus with 10 samples.

Results

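The genes described here are 37 interferon-stimulated genes, that is, genes that cells switch on after exposure to interferon. They are a list of symbols matched to the Ensembl identifiers of the count tables. The matching uses no measured value, but the list was drawn up with earlier results of these data known, so its counts are a description and not those of an independently chosen set. All 37 were found among the 37583 gene rows, and all 37 were among the 15364 genes tested. For 36 of them the filter on low counts was met by CTL, IBR and WT libraries alone, while Mx1 passed it only through the libraries labelled KO.

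The measurements are read counts per gene from poly(A) RNA of mouse left atria, in 10 libraries from adult animals. The 3 CTL libraries are from vehicle-treated mice and the 3 IBR libraries from mice given ibrutinib, a drug for B-cell cancers that blocks the kinase BTK, in a series titled for the atrial fibrillation seen with that drug. The 2 WT libraries are from untreated wild-type mice and the 2 KO libraries carry the genotype "cardiac CSK KO". CSK is a kinase that holds Src-family kinases in check. The strain, the ibrutinib dose and duration, and the promoter or Cre behind the cardiac deletion are, like the genotype of the CTL and IBR mice, not given in sources used here. The labels call the samples replicates without naming animals, so p-values measure the spread between these libraries, which may be technical.

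Interferons are secreted cytokines of antiviral defence. Type I interferons act through the receptor IFNAR and the kinases JAK1 and TYK2 on a transcription factor complex that includes STAT2 and IRF9 and binds interferon-stimulated response elements. Interferon gamma acts through IFNGR on factors that bind gamma-activated sites. The induced proteins sense viral RNA and DNA, block viral entry, translation and replication, and attach or remove the ubiquitin-like protein ISG15.

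Total counts on genes ran from 14907331 to 19960947 per library, so that 3 counts correspond to 0.136 to 0.216 CPM (counts of a gene relative to the scaled library total, by the trimmed mean of M values). The scaling factors were 0.8696 to 1.026 in CTL, IBR and WT and 1.157 and 1.228 in KO26 and KO337, and both of these libraries stood apart from the rest. Csk was at 18.3 and 17.8 CPM in WT35 and WT338, against 24.7 and 35.5 CPM in KO26 and KO337. It ran at 21.9 to 26.7 CPM in CTL and IBR. Csk was therefore not lower in the libraries labelled KO (log2 difference 0.74, SE 0.18, adjusted p = 0.0608 by edgeR's quasi-likelihood test), and every direction below rests on that label. The 8 cardiomyocyte markers, among them the atrial genes Myl7, Myl4 and Nppa, summed to 71700 to 99900 CPM in CTL, IBR and WT, to 57600 CPM in KO26 and to 30900 CPM in KO337.

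Promoter sequence was examined first, because the response elements named above lie there. RefSeq windows of build GRCm38.p6, from 250 bases before to 50 bases after a gene's start, were at hand for 27 of the 37 genes. The response element was searched as GAAA-NN-GAAA and the gamma-activated site as TTC-NNN-GAA (N is any base, hyphens only separate the parts), on both strands, with overlapping matches counted. At least 1 match to the response element was held by 15 of the 27 genes (55.6%), against 3.99% of all 27025 genes with such windows (3.44% of 32851 windows). The gamma-activated site was matched in 7 of the 27 genes (25.9%), against 9.55% of all genes (8.3% of windows), and in Bst2 and Ifitm3 it overlaps a match to the response element. The 4 sequences below are the 250 bases before the start, 5′ to 3′ on the gene's strand, with matches to the response element in capitals. They are those of the 3 matched genes with the smallest p for KO against WT (Bst2, Irgm1 and Ifit3) and of Isg15, which held the most matches and was added after its matches were seen.
Bst2, chr8:71537473-71537722, minus strand: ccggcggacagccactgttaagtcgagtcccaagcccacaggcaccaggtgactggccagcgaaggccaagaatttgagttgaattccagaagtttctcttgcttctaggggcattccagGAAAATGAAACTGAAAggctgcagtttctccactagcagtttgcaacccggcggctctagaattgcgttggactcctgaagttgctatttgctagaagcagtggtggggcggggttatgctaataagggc
Irgm1, chr11:48871421-48871670, minus strand: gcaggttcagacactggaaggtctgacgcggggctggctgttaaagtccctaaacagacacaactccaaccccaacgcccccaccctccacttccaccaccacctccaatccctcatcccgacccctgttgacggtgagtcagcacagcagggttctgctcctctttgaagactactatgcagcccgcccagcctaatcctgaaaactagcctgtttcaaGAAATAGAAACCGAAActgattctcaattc
Ifit3, chr19:34583279-34583528, plus strand: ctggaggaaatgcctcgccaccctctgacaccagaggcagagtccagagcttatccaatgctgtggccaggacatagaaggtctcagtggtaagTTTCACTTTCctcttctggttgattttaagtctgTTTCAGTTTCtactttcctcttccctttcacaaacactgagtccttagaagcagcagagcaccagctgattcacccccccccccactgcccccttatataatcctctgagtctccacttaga
Isg15, chr4:156200819-156201068, minus strand: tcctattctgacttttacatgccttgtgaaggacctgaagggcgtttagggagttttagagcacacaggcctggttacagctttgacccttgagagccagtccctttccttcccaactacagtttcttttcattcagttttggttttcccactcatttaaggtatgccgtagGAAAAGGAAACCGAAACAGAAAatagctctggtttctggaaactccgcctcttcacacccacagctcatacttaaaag

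In Bst2 and Irgm1 the capitals are a pair of overlapping matches, and in Isg15 they are 3 overlapping matches that end at position -57 from the start. In Ifit3 the 2 matches lie apart on the opposite strand. The 12 genes with a window but no match include Lgals3bp, Samd9l, Irf7, Irf9, Ifit2, Ifi44 and Xaf1, several of which lead the comparisons below. The median log2 difference between KO and WT was 0.99 in the 15 matched genes and 1.14 in the 12 others. Between IBR and CTL it was 0.77 and 0.62. A match describes the letters of the window and does not show a bound site.

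In the comparison of KO with WT, which asks what differs in atria labelled as lacking cardiac CSK, every one of the 37 genes had a positive log2 difference, beside 50.7% of all genes tested. Lgals3bp and Samd9l rose at an adjusted p under 0.05, and no member fell. The called share of members, 2 of 37, stands beside 1.31% of all genes tested that were called higher and 0.898% called lower. At an unadjusted p under 0.05, 22 of the 37 were higher and 0 lower, beside 13.3% of all genes higher and 12.4% lower. The median log2 difference of the members was 0.99 against 0.01 for all genes, with a range from 0.17 (Gbp2) to 3.78 (Mx1). In 33 of the 37 both libraries labelled KO lay above both WT libraries, beside 26.3% of all genes, and in none below, beside 26.9%. Mx1, which entered the test only through the libraries where it was high, had to differ. Without it 36 of 36 were positive, 21 had an unadjusted p under 0.05, 32 had the groups apart, the median was 0.94 and the highest value was 1.88 (Ifit3). In whole tissue, more cells of a type and more RNA per cell cannot be told apart. The heat map of all members by library shows both comparisons gene by gene.

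**Figure D1:**
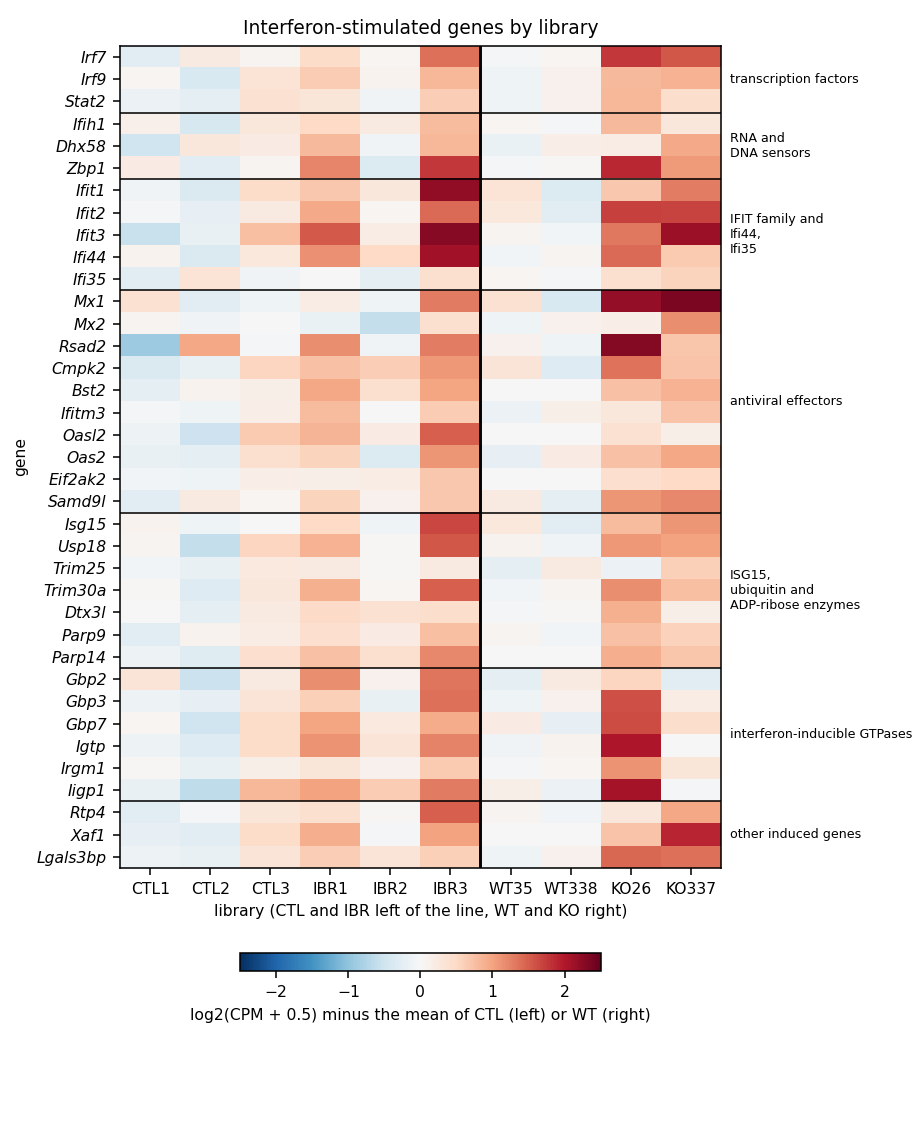
Level of each of the 37 genes in each library, as log2(CPM + 0.5) minus the mean of CTL (for CTL and IBR) or of WT (for WT and KO), with genes in rows by role and libraries in columns. IBR1, IBR3, KO26 and KO337 are mostly above their controls, while IBR2 stays near CTL and KO337 stays near WT for most of the group of interferon-inducible GTPases.

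The transcription factors of the pathway were all higher in the libraries labelled KO, with none called by edgeR as fitted here. DESeq2 called Irf7 and Irf9, and edgeR called Irf7 without the filter on low counts and with library size alone. Irf7, the master regulator that amplifies type I interferon production, was at 7.32 and 7.8 CPM in WT35 and WT338, against 26.7 and 23 CPM in KO26 and KO337. The groups did not overlap, and the log2 difference was 1.72 (SE 0.39, adjusted p = 0.0512 by edgeR). Irf9, the DNA-binding partner of STAT2, was at 17.6 and 20.6 CPM in WT and 33.8 and 35 CPM in KO (log2 0.85, SE 0.27, adjusted p = 0.0993). Stat2 had a log2 difference of 0.65 (SE 0.27, adjusted p = 0.166). The median of the 3 was 0.85, and all 3 had an unadjusted p under 0.05.

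Among the 3 sensors the median log2 difference was 0.68, with 1 of 3 at an unadjusted p under 0.05. That was Zbp1, a sensor of Z-form nucleic acid that triggers cell death, at 1.88 and 1.95 CPM in WT, against 8.36 and 4.53 CPM in KO26 and KO337 (log2 1.74, SE 0.68, adjusted p = 0.147). Its groups were apart, but the KO libraries were far from each other. Ifih1, the long double-stranded RNA sensor MDA5, and Dhx58, its regulator LGP2, had log2 differences of 0.57 and 0.68 with adjusted p of 0.201 and 0.363.

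The IFIT proteins hinder the translation of viral RNA. Together with Ifi44 and Ifi35 they form a group of 5 with a median log2 difference of 1.14, and all 5 had both KO libraries above both WT libraries. Ifit2 was at 8.36 and 5.66 CPM in WT, against 23.7 and 23.4 CPM in KO26 and KO337. The KO libraries lay close together here and well above WT (log2 1.74, SE 0.39, adjusted p = 0.0511). Ifit3 had a log2 difference of 1.88 (SE 0.65, adjusted p = 0.121), with 14.2 CPM in KO26 and 25.7 CPM in KO337 over 5.69 and 5.16 CPM in WT. Ifi44, a cytoplasmic antiviral protein, was at 6.63 and 7.29 CPM in WT, against 19.4 and 11.2 CPM in KO (log2 1.14, SE 0.49, adjusted p = 0.179).

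All 10 antiviral effectors, Mx1 included, had KO libraries above WT libraries, with a median log2 difference of 0.89 and 6 of 10 at an unadjusted p under 0.05. Samd9l, an interferon-induced restrictor of virus translation and cell growth, was at 31.2 and 22.8 CPM in WT35 and WT338, against 57.5 and 61.9 CPM in KO26 and KO337. It rose 2.21-fold (log2 1.14, SE 0.23, adjusted p = 0.0405). Bst2, or tetherin, which holds budding virus at the cell surface, was at 22.5 and 21.9 CPM in WT and 37.3 and 41.2 CPM in KO. Both pairs were tight and apart (log2 0.82, SE 0.22, adjusted p = 0.0685). Rsad2, or viperin, which makes a nucleotide that stops viral polymerases, reached 26.8 CPM in KO26 and 8.51 CPM in KO337 over 5.54 and 4.65 CPM in WT.

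Both Mx genes, dynamin-like GTPases that trap viral nucleocapsids, were scarce. Mx1 had 5, 0 and 1 reads in CTL, 3, 1 and 16 in IBR, 7 and 0 in WT, and 43 and 62 in KO26 and KO337. Its log2 difference between KO and WT of 3.78 (SE 1.19, adjusted p = 0.0993) rests on WT counts of 7 and 0, and on the prior count of the fit. Mx2 was at 1.58 and 1.95 CPM in WT, against 2.03 and 4.53 CPM in KO (log2 0.9, SE 0.51, adjusted p = 0.285).

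The enzymes of ISG15, ubiquitin and ADP-ribose had a median log2 difference of 0.81, with 4 of 7 at an unadjusted p under 0.05 and none called by edgeR or DESeq2. Parp9, a partner of the ubiquitin ligase Dtx3l, was at 21.3 and 19.4 CPM in WT and 34.2 and 30.5 CPM in KO (log2 0.67, SE 0.21, adjusted p = 0.1). Parp14, an ADP-ribosyltransferase, was at 35.5 and 36.3 CPM in WT and 67.7 and 57.9 CPM in KO. The groups were apart for both genes, and Parp14 had a log2 difference of 0.81 (SE 0.28, adjusted p = 0.116). Isg15 itself was at 4.4 and 2.89 CPM in WT and 6.56 and 8.24 CPM in KO (log2 1.02, SE 0.53, adjusted p = 0.249). Trim25, a ligase that activates the RNA sensor RIG-I, was the 1 member of the group whose libraries overlapped.

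Of the 3 remaining genes, Lgals3bp, a secreted glycoprotein that binds galectin-3, gave the smallest p of all members. It was at 34.7 and 39.9 CPM in WT35 and WT338, against 102 and 97.6 CPM in KO26 and KO337. It rose 2.67-fold (log2 1.42, SE 0.19, adjusted p = 0.0187). Xaf1, a pro-apoptotic antagonist of XIAP, was at 12.5 CPM in both WT libraries, 20.8 CPM in KO26 and 48.4 CPM in KO337 (log2 1.47, SE 0.45, adjusted p = 0.0934). Both calls depend on the libraries fitted. Lgals3bp lost its call without WT35 (adjusted p = 0.139) or WT338 (0.0804), and Samd9l kept its call among single-library omissions only without IBR2 or KO26. Every omission except that of KO26 also left fewer of all genes called higher, so these losses are not shown to be particular to the members. In a fit of the WT and KO libraries alone, none of the 37 was called, and no other gene either. At an unadjusted p under 0.05, 24 were higher in that fit, beside 9.21% of all genes. Fits without WT338, WT35, KO26 or KO337 leave 1 library in a group, so only effect sizes are given. In that order, the median log2 difference of the members was 0.93, 0.92, 0.73 and 0.89. For all genes it was 0.04, 0.02, -0.01 and -0.03.

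**Figure D2:**
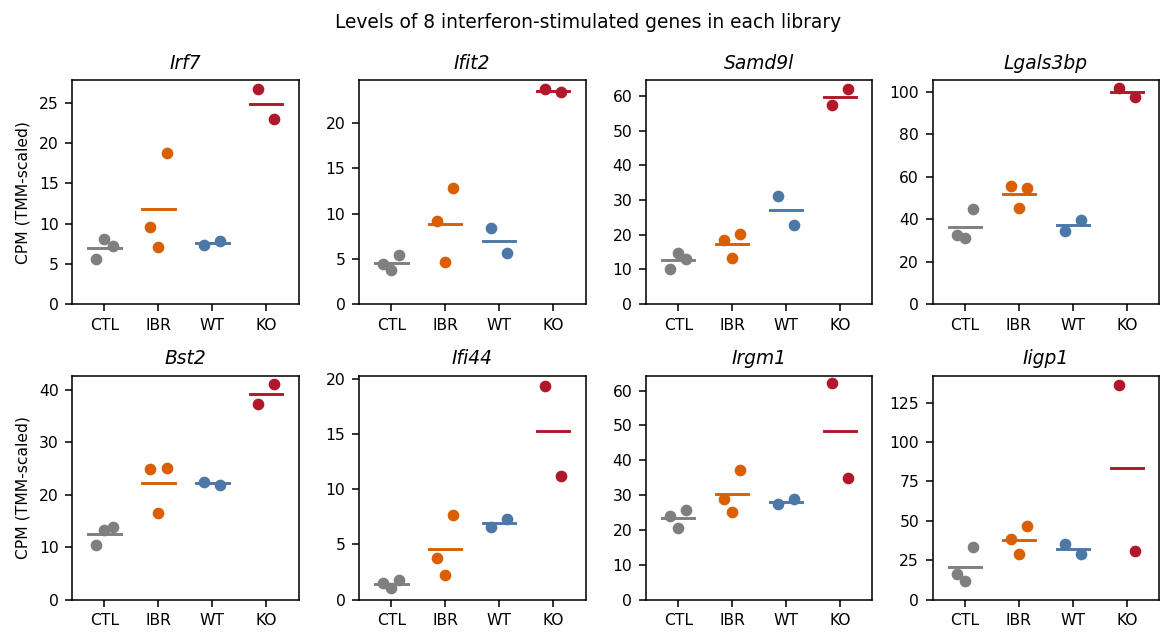
Level in CPM of 8 of the genes in each library, with a point per library and a bar at the group mean. For Lgals3bp, Irf7, Ifit2, Samd9l and Bst2 both KO libraries lie above both WT libraries, while for Iigp1 KO26 alone stands above.

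The interferon-inducible GTPases, a group of 6 that leaves out Mx1 and Mx2, differed between the KO libraries. They attack the membranes of vacuoles that hold intracellular pathogens and respond strongly to interferon gamma. All 6 were higher in KO26 than in KO337, beside 52% of all genes tested. Relative to the WT mean, their median log2 difference was 1.62 in KO26 and 0.09 in KO337. Iigp1 was at 35.2 and 28.8 CPM in WT, at 136 CPM in KO26 and at 30.6 CPM in KO337. Igtp was at 10.7 and 12.1 CPM in WT, 47.9 CPM in KO26 and 11.4 CPM in KO337. For both genes KO337 lay within the WT range, and KO26 alone was high. Gbp2 was at 53.6 and 73.9 CPM in WT, 91.4 CPM in KO26 and 51.9 CPM in KO337, the smallest difference of all members between KO and WT (log2 0.17, SE 0.43, adjusted p = 0.838).

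Irgm1, which also steers autophagy, was at 27.3 and 29 CPM in WT and 62.2 and 34.8 CPM in KO26 and KO337, with both KO libraries above WT (log2 0.78, SE 0.27, adjusted p = 0.112). The 31 members outside this group were split about evenly between the libraries, with 15 higher in KO26 and 16 in KO337. They include the dynamin-like GTPases Mx1 and Mx2, both higher in KO337. Their median log2 difference from WT was 0.81 in KO26 and 0.88 in KO337. At least 2-fold higher in KO26 than in KO337 were Rsad2, Gbp3, Gbp7, Igtp and Iigp1, and the reverse held for Mx2 and Xaf1. Among all genes the shares were 7.59% and 10.1%. Each side is 1 library, so this contrast has no replicate check.

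**Figure D3:**
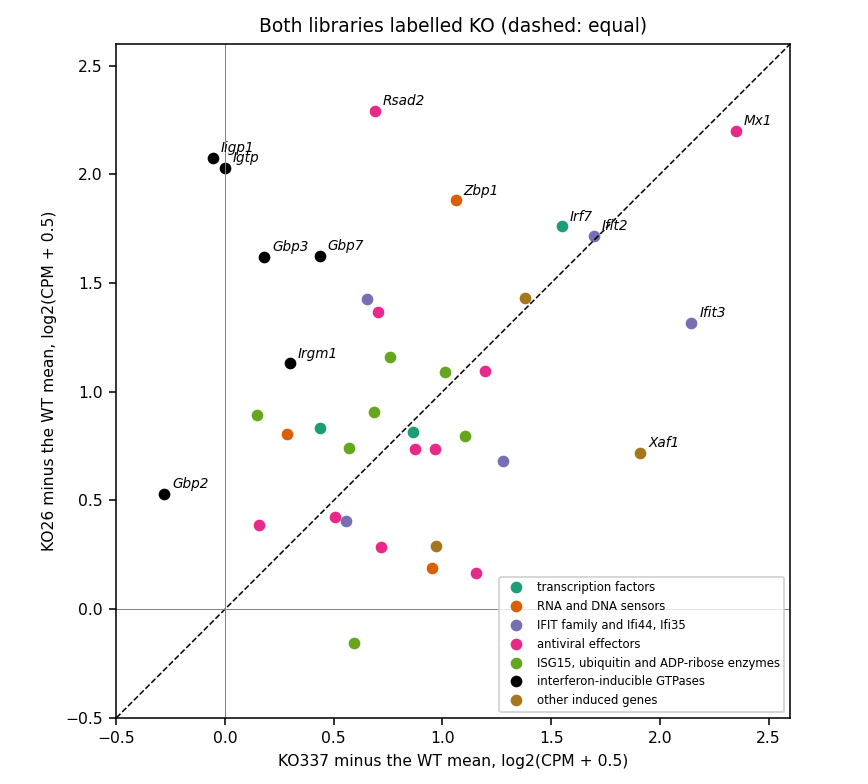
Level of each member as log2(CPM + 0.5) in KO337 (horizontal axis) and KO26 (vertical axis), each minus the WT mean, with points coloured by role and a dashed line at equal values. The group of interferon-inducible GTPases, which leaves out Mx1 and Mx2, lies to the upper left of the line, with a median of 1.62 in KO26 and 0.09 in KO337. The other members lie on both sides of it.

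The comparison of IBR with CTL asks what differs after ibrutinib. Here 36 of the 37 genes had a positive log2 difference, beside 44.7% of all genes, with a median of 0.77 against -0.03 for all genes, and none passed the adjusted test. By edgeR's quasi-likelihood test 0 of 37 were called (0.00% of all genes called higher), the smallest adjusted p being 0.823. DESeq2 also called 0. At an unadjusted p under 0.05, 22 of 37 were higher and 0 lower, beside 3.31% of all genes higher and 2.21% lower. All 3 IBR libraries lay above all 3 CTL libraries for 6 members (Ifi44, Cmpk2, Bst2, Dtx3l, Parp9 and Lgals3bp), beside 5.91% of all genes, and below them for no member, beside 7.55%.

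Bst2 had the smallest p of the members here. It was at 10.5, 13.3 and 13.9 CPM in CTL and at 24.9, 16.6 and 25.1 CPM in IBR, with no overlap (log2 0.82, SE 0.18, unadjusted p = 0.000964, adjusted p = 0.823). Ifi44 was at 1.54, 1.01 and 1.81 CPM in CTL and 3.76, 2.24 and 7.7 CPM in IBR. That is a 3.11-fold difference (log2 1.64, SE 0.45, unadjusted p = 0.00432) with the groups apart and IBR2 nearest to CTL. Parp14 was at 13.1, 11.5 and 19.4 CPM in CTL and 24.1, 19.1 and 33.6 CPM in IBR (log2 0.8, SE 0.23, unadjusted p = 0.00609), with IBR2 just inside the CTL range.

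Lgals3bp, called between KO and WT, was at 32.5, 31.4 and 44.9 CPM in CTL and 55.6, 45.2 and 54.7 CPM in IBR (log2 0.51, SE 0.16, unadjusted p = 0.00773). The groups were apart by a small margin at CTL3 and IBR2. Samd9l was at 10.2, 14.6 and 13 CPM in CTL and 18.5, 13.4 and 20.1 CPM in IBR, with IBR2 inside the CTL range (log2 0.46, SE 0.2, unadjusted p = 0.0396). Irf7 was at 5.58, 8.07 and 7.25 CPM in CTL and 9.62, 7.12 and 18.8 CPM in IBR, again with IBR2 among the controls (log2 0.77, SE 0.32, unadjusted p = 0.0349).

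The IFIT group had the highest median of the role groups between IBR and CTL, 1.39, with 4 of 5 at an unadjusted p under 0.05. Ifit2 was at 4.44, 3.82 and 5.37 CPM in CTL and 9.13, 4.65 and 12.8 CPM in IBR (log2 0.96, SE 0.33). Zbp1 was at 0.91, 0.504 and 0.785 CPM in CTL and at 2.34, 0.459 and 3.67 CPM in IBR (log2 1.53, SE 0.62). In both genes IBR1 and IBR3 lay above CTL, while IBR2 lay inside the CTL range for Ifit2 and just below it for Zbp1. The medians of the other groups were 0.54 for the transcription factors, 0.63 for the sensors, 0.69 for the antiviral effectors, 0.8 for the ISG15, ubiquitin and ADP-ribose enzymes, 0.81 for the GTPases and 0.7 for the rest.

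Of the GTPases, Gbp2 was at 27.7, 15.1 and 25.8 CPM in CTL and 50.2, 24 and 56.9 CPM in IBR (log2 0.93, SE 0.36, unadjusted p = 0.0272), and it was the 1 of 6 at an unadjusted p under 0.05. Irgm1 was at 24, 20.5 and 25.8 CPM in CTL and 28.9, 25.2 and 37.2 CPM in IBR (log2 0.38, SE 0.22). For both, IBR2 fell among the controls. Parp9 was at 9.79, 12.7 and 13.6 CPM in CTL and 16.2, 13.8 and 20.4 CPM in IBR, with the groups just apart (log2 0.49, SE 0.18, unadjusted p = 0.0206).

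The extremes of this comparison were the Mx genes. Mx1 had the highest log2 difference, 1.66 with SE 1.2, from the 16 reads of IBR3. Mx2 was the 1 member with a negative value (log2 -0.11, SE 0.47), at 1.02, 0.865 and 0.966 CPM in CTL and 0.802, 0.459 and 1.41 CPM in IBR.

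The IBR libraries kept nearly the same order across the members. IBR2 was the lowest of the 3 for 36 of 37 genes, beside 31.8% of all genes tested, and IBR3 the highest for 33, beside 28.5%. Relative to the CTL mean, the median log2 difference over members was 0.69 in IBR1, 0.09 in IBR2 and 1.1 in IBR3, and in CTL1, CTL2 and CTL3 it was -0.12, -0.21 and 0.27. Members above all 3 CTL libraries numbered 31 in IBR1, 7 in IBR2 and 36 in IBR3, beside 24.6%, 21% and 23.9% of all genes. At least 2-fold over the CTL mean were 7, 0 and 20 members. The share of all genes at that fold was not counted, so these counts are not shown to be particular to the members. CTL3 was the highest control for 27 members, beside 36.8% of all genes. The count higher at an unadjusted p under 0.05 was 4 without IBR3, 14 without IBR1, 28 without IBR2, 7 without CTL1 and 8 without CTL2. In the same order, the shares of all genes were 1.88%, 1.62%, 4.1%, 1.61% and 1.37%. The median was 0.47 without IBR3 and 0.98 without IBR2.

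**Figure D4:**
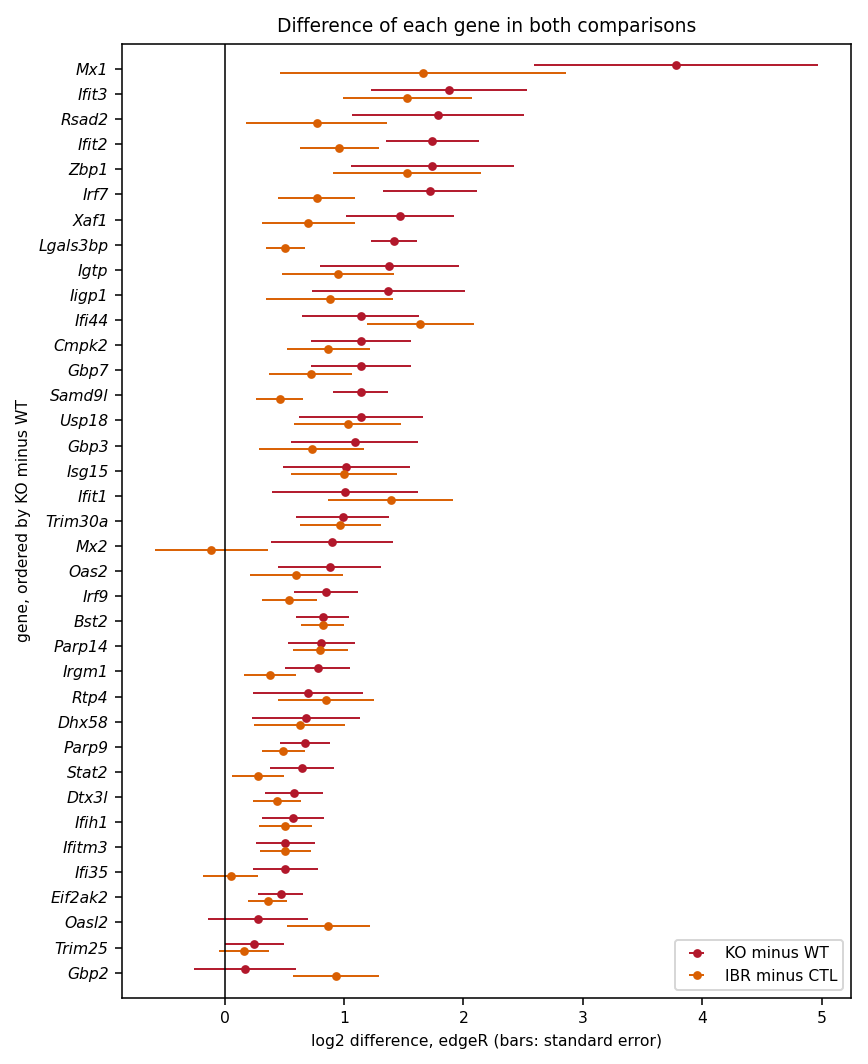
Log2 difference of each member between KO and WT and between IBR and CTL, on the horizontal axis, with bars of 1 standard error and genes ordered by their value for KO against WT. All 37 values for KO against WT and 36 of 37 for IBR against CTL lie above 0, and Mx1 has the widest bars.

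The difference between the KO and the IBR effects was tested as a contrast of its own in the same fit, since the comparisons share no control library. By edgeR 0 of 37 members were called (0.00% of all genes called higher and 0.0260% lower), and DESeq2 also called 0. At an unadjusted p under 0.05, 2 of 37 were larger in KO against WT, beside 4.97% of all genes larger and 4.82% smaller. They were Lgals3bp (log2 0.9, SE 0.25, unadjusted p = 0.00399, adjusted p = 0.34) and Samd9l (log2 0.68, SE 0.3, unadjusted p = 0.0481, adjusted p = 0.505). The median was 0.26, with 30 of 37 positive, beside 52.7% of all genes. The lowest value was that of Gbp2 (log2 -0.76, SE 0.56, adjusted p = 0.655) and the highest that of Mx1 (log2 2.12, SE 1.83). A p above the threshold at this depth and n does not show equal effects.

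The upstream genes of the pathway were tested in the same fit. Of 43 ligands, receptors, kinases, factors, sensors and inhibitors listed, 41 were found and 34 tested. Between KO and WT 0 were called by edgeR and 7 higher by DESeq2, beside 1.31% and 3.68% of all genes called higher. At an unadjusted p under 0.05, 12 were higher and 1 lower, beside 13.3% and 12.4% of all genes, and the median log2 difference was 0.24. Between IBR and CTL 0 were called by either tool, 2 of 34 were higher at an unadjusted p under 0.05, beside 3.31% of all genes, and the median was 0.03.

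Interferon ligands were at or under the limit of detection. Ifng had 3 reads in KO26 and 0 in every other library, Ifnb1 had 1 read in KO337 alone, and Ifna2, Ifna4, Ifnl2 and Ifnl3 had 0 reads in all 10 libraries. A count of 0 allows up to 3 reads, or 0.136 to 0.216 CPM. The receptor chain Ifnar1 was at 35 and 41.2 CPM in WT and 50.7 and 57.7 CPM in KO (log2 0.51, adjusted p = 0.129), and at 24.9 to 36.8 CPM in CTL and 34.8 to 37.6 CPM in IBR. Ifngr1 was at 66 and 74.6 CPM in WT and 104 and 157 CPM in KO (log2 0.89, adjusted p = 0.0724). Ifngr2, the partner chain of Ifngr1, went the other way, at 160 and 143 CPM in WT, against 131 and 96.6 CPM in KO (log2 -0.41, adjusted p = 0.215), and was named after its values were seen. Ifnar2, Ifnlr1 and Il10rb overlapped between the groups, and none of the 6 receptor genes tested was called by edgeR.

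Among the pathway genes, the smallest adjusted p between KO and WT were those of Ptpn6, the phosphatase SHP-1 (log2 2.26, 0.0509), Irf8, a factor of myeloid cells (log2 0.61, 0.0607), and Tlr9, an endosomal DNA receptor (log2 2.48, 0.0691). Of all pathway genes, those with the smallest p between IBR and CTL by edgeR's quasi-likelihood test were Tlr7, an endosomal RNA receptor (log2 0.93, adjusted p = 0.823), and Ddx58, the RNA sensor RIG-I (log2 0.83, adjusted p = 0.823).

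A further list of 65 interferon-induced genes that are not among the 37, of which 62 were tested, was mostly positive too. Between KO and WT 56 of 62 were positive, beside 50.7% of all genes, with a median log2 difference of 0.84. At an unadjusted p under 0.05, 32 were higher and 1 lower, beside 13.3% and 12.4% of all genes. These counts include Oas1g, with 1 to 8 reads in each CTL, IBR and WT library and 18 and 41 in KO26 and KO337. It passed the filter on low counts only through the KO libraries and had to differ. By edgeR 2 were called higher and 1 lower, beside 1.31% and 0.898%. Ifi27, a mitochondrial interferon-induced protein, rose from 38.6 and 41.7 CPM in WT to 74 and 75.8 CPM in KO (log2 0.9, adjusted p = 0.0343). Trim12c rose from 17.7 and 13.6 CPM to 30.4 and 33.2 CPM (log2 1.02, adjusted p = 0.0404). Ifi205, of the DNA-binding HIN-200 family, fell from 16.9 and 28.9 CPM in WT to 5.92 and 3.44 CPM in KO (log2 -2.29, adjusted p = 0.0427). None of the 3 was called in a fit of the WT and KO libraries alone. In IBR it was at 18.4, 8.27 and 22.3 CPM over 9.27, 12.3 and 8.57 CPM in CTL, again lowest in IBR2.

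Between IBR and CTL 59 of the 62 were positive, beside 44.7% of all genes, with a median of 0.54. None was called by edgeR or DESeq2, and 15 were higher at an unadjusted p under 0.05, beside 3.31% of all genes, led by Rnf213 (log2 0.69), Slfn9 (log2 1.05) and Ifi47. Cxcl9, a chemokine induced by interferon gamma, was at 1.04 and 0.817 CPM in WT, 12.1 CPM in KO26 and 1.95 CPM in KO337. Genes of this list at least 2-fold higher in KO26 than in KO337 numbered 9, among them Gbp4, Gbp8, Irgm2, Tgtp1, Tgtp2, Cxcl9 and Nlrc5, and 2 (Ifi30 and Slfn2) showed the reverse, beside 7.59% and 10.1% of all genes.

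Markers of several other cell types differed between the same libraries, while the sums of others overlapped. The counts below stand beside 1.31% of all genes called higher between KO and WT. Both KO libraries lay above both WT libraries for 26.3% of all genes. The 12 macrophage markers summed to 539 and 579 CPM in WT, 904 CPM in KO26 and 3440 CPM in KO337, and 3 of 12 were called higher. Monocyte markers summed to 4.06 and 2.7 CPM in WT and 41.7 and 36.9 CPM in KO26 and KO337, with 4 of 5 tested called higher. Of the called genes Spn, and also the uncalled Ly6c2, passed the filter on low counts only through the KO libraries and had to differ. T and NK cell markers summed to 2.77 and 3.4 CPM in WT and 22.2 and 13.1 CPM in KO, with 2 of 6 tested called higher and Ncr1 at 0 in KO337. Both called genes, Cd3e and Cd8a, passed that filter only through the KO libraries, so they had to differ. The same holds for the uncalled Cd3d, Cd3g and Klrb1c. Fibroblast markers summed to 2300 and 2130 CPM in WT, 2610 CPM in KO26 and 8440 CPM in KO337, with all 8 apart and 1 of 8 called higher. Neutrophil markers summed to 4.45 and 2.51 CPM in WT, 8.88 CPM in KO26 and 24.3 CPM in KO337, with none of the 4 tested called by edgeR. Endothelial markers summed to 1100 and 1270 CPM in WT and 1220 and 1510 CPM in KO, with 7 of 8 overlapping, beside 7193 of all 15364 genes. B cell markers summed to 1.24 and 2.83 CPM in WT and 2.44 and 4.66 CPM in KO. Plasmacytoid dendritic cell markers summed to 4.4 and 3.46 CPM in WT and 3.71 and 9.78 CPM in KO. None of these 3 lists held a called gene. The macrophage, fibroblast, neutrophil, endothelial, B cell and plasmacytoid dendritic cell sums were higher in KO337 than in KO26. The monocyte, T and NK cell and cardiomyocyte sums were higher in KO26. The group of 6 interferon-inducible GTPases and Cxcl9 were also higher in KO26, and each side is 1 library. The part of these cells in the member differences was not tested.

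Between IBR and CTL the macrophage sum was 304, 305 and 371 CPM in CTL and 565, 401 and 431 CPM in IBR. Fibroblast markers summed to 963, 901 and 1310 CPM in CTL and 1990, 1280 and 1950 CPM in IBR, and endothelial markers to 536, 639 and 870 CPM and to 938, 722 and 904 CPM. For each of these sums IBR2 was the lowest IBR library and IBR1 the highest. Among the members IBR2 was also the lowest for 36, but IBR3 was the highest for 33. Cardiomyocyte markers summed to 99900, 88100 and 86500 CPM in CTL and 80800, 84200 and 78700 CPM in IBR. The summed level of the 37 members was 403, 373 and 531 CPM in CTL and 699, 479 and 848 CPM in IBR. Plasmacytoid dendritic cells, a main source of type I interferon, had marker sums of 4.1 to 5.84 CPM in CTL and 4.19 to 6.42 CPM in IBR, with Cd300c at 0 in 7 of the 10 libraries. The part of cell composition in these differences was not tested either.

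**Figure D5:**
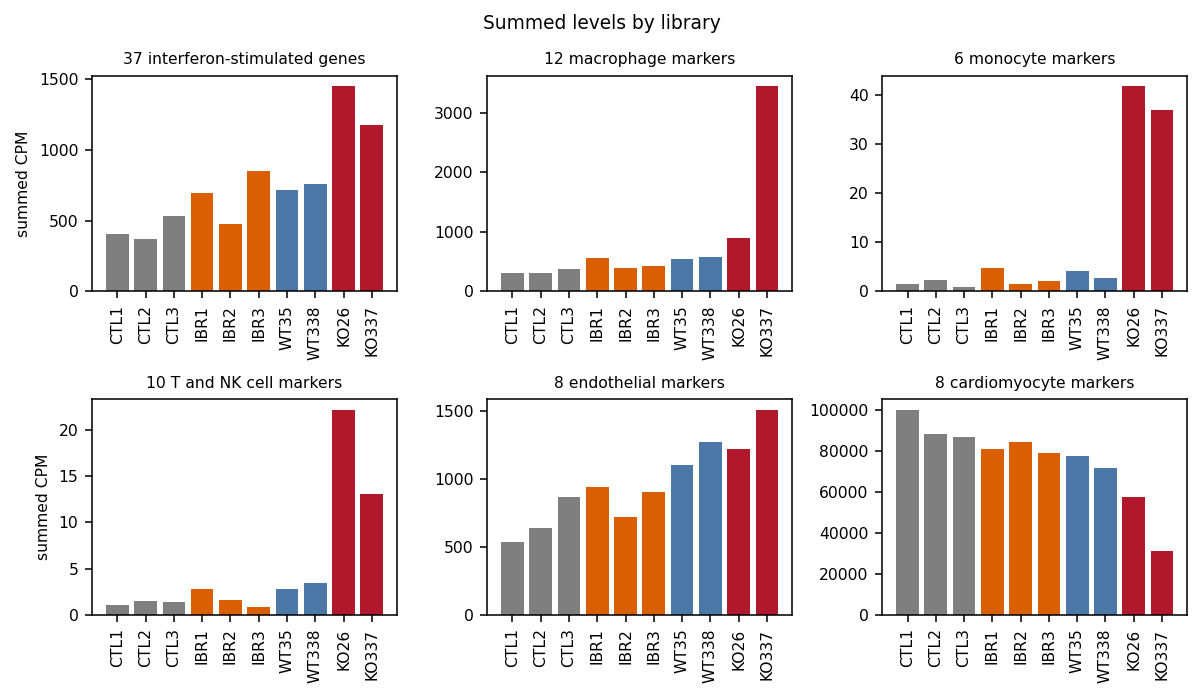
Summed CPM of the 37 members and of 5 marker lists, with a bar per library coloured by group and each panel on its own linear axis. The sums of the members and of the macrophage, monocyte, and T and NK cell markers are higher in both KO libraries than in both WT libraries, and the cardiomyocyte sums are lower.

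Levels per length placed the genes over a wide range. Dividing the mean CTL level by exon length, Ifitm3, which blocks virus fusion in endosomes, was highest at 84.4 CPM per kb. Bst2 at 13.9, Lgals3bp at 12.7 and Gbp2 at 9.08 CPM per kb followed, and Ifi44 at 0.237, Zbp1 at 0.208 and Mx1 at 0.0304 CPM per kb were lowest. Counting ignored strand, so overlapping genes can exchange or lose reads, and some members overlap another gene. The exons of Dtx3l and Parp9 share 458 bases on opposite strands, those of Igtp and Irgm2 share 162 bases, and those of Irf9 and Rnf31 share 123 bases. Ifit3 and its near-identical copy Ifit3b can also lose reads that have no unique position, so their levels are uncertain.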

How the data were processed

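The authors deposited raw counts of reads per gene, one table per library and no normalization; per the labels' protocols the libraries were poly(A)-selected with a directional kit. Per the submitters' processing notes STAR, HTSeq, edgeR and the build mm9 were used; their versions, the annotation and any filters: not given in sources used here. Counting ignored strand, as the deposited tables' names state. Rows without a gene (no feature 13.5% to 19.9%, ambiguous 3.14% to 3.99%, not unique 11.8% to 27.4% of records) stayed out. Symbols were matched for 32860 gene rows (87.4%).

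In R 4.3.3, counts went into the quasi-likelihood test of edgeR 4.0.16, with limma 3.58.1 loaded (TMM scaling, filterByExpr with minimum count 10 and minimum total 15, robust, 4 group means, 6 residual degrees of freedom), with p-values adjusted by Benjamini-Hochberg over all 15364 genes tested and "called" meaning an adjusted p under 0.05. The common biological coefficient of variation was 0.221. A standard error is the log2 difference over the square root of F. The fit was also run on counts simulated from its own estimates of the spread. Such counts cannot show how the test behaves where replicate libraries depart from that model, and nothing is concluded from them. Levels per library relative to controls use log2(CPM + 0.5). Exon lengths and overlaps are from GENCODE vM21, another build than mm9. DESeq2 1.42.0 was an alternative.

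The members and all lists were chosen with earlier results of these data known. Values in every library are given, in each role group, for the member with the smallest p in either comparison, for called members and for the extremes; those of Irf9, Ifit3, Rsad2, Isg15, Xaf1, Igtp, Iigp1 and Cxcl9 were added after their values were seen. A gene of the pathway list is counted but not reported here by name.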

Additional observations from a re-analysis of the deposited data

How the results depend on the processing

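Members of the 37 called higher between KO and WT numbered 2 as reported, 4 with library size alone and 5 without the filter on low counts. There were 9 with DESeq2 and 0 in the separate fit of the groups compared. Of all genes, 1.31%, 1.92%, 1.91%, 3.68% and 0% were called higher in these settings. Those shares also stand beside the pathway and further gene counts given below for the same settings. Leaving out 1 library at a time gave 0 to 6, with 0 without WT35 or WT338, 1 without CTL1, CTL2, CTL3, IBR1 or KO337, 4 without IBR2 and 6 without KO26, where 11.3% of all genes were called higher; a group left with 1 library is assumed to vary like the others. Without CTL1, CTL2 and CTL3 the share of all genes called higher was 0.365%, 0.419% and 0.633%. Without IBR1, IBR2 and IBR3 it was 0.404%, 0.64% and 0.0521%. Without WT35, WT338 or KO337 that share also fell below the reported 1.31%. The loss of member calls in these fits is therefore not shown to be particular to the members. Library size alone moved the median of all genes from 0.01 to 0.23, that of the members from 0.99 to 1.21, and the split of all called genes from 201 higher and 138 lower to 295 and 66. Single omissions gave medians of 0.73 (without KO26) to 0.99 between KO and WT, and 0.47 to 0.98 between IBR and CTL.

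Pathway genes called higher between KO and WT went from 0 to 2 with library size alone, 5 without the filter and 7 with DESeq2. Further interferon-induced genes went from 2 higher to 7 without the filter, 18 with DESeq2 and 0 in the separate fit. The 1 lower call (Ifi205) became 0 with library size alone, without the filter and in the separate fit. For the difference of effects, DESeq2 called 1 further gene lower, and omissions gave 0 to 2 pathway genes higher and 0 to 1 further genes higher and 0 to 3 lower. Between IBR and CTL, 0 members were called under every setting run. The replicate block gave a median of 0.73 and a smallest adjusted p of 0.0985 by edgeR's quasi-likelihood test. In it 28 of 36 members were higher at an unadjusted p under 0.05, beside 7.47% of all genes. The same-numbered libraries correlated at only 0.016, 0.162 and 0.032, and IBR1 correlated best with CTL3 (0.182), so the numbers were not taken as pairs. No paired analysis was possible for KO and WT because they share no numbers.

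Directions turned for 2 members with values near 0: Parp14 in the difference of effects was -0.01 with RLE size factors, -0.08 without the filter and -0.01 with DESeq2, and Bst2 was 0.14 with library size alone. Over the omissions the log2 difference ran from -0.31 to 0.5 for Gbp2 between KO and WT, from -0.6 to 0.21 for Mx2 and -0.03 to 3.37 for Mx1 between IBR and CTL, and in the difference of effects from -0.25 to 0.25 for Parp14, -0.17 to 0.12 for Bst2, -0.3 to 0.84 for Zbp1, -0.97 to 0.1 for Ifi44 and -0.09 to 0.72 for Irgm1; the cause was not tested. The 13 members followed through every setting were chosen by their values in these comparisons, and every setting refits the same libraries. Their signs are therefore no independent check. Of their alternative values, 193 of 195 between KO and WT and 190 of 206 between IBR and CTL were positive. Depth limits the ligands and Mx1 most, with 0 to 16 reads of Mx1 in each CTL, IBR and WT library.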

Other observations

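The untreated WT libraries had a higher mean level than the vehicle-treated CTL libraries for 36 of the 37 members. The ratio of the WT to the CTL mean ran from 0.981 for Ifi35 to 4.81 for Ifi44, with 4.25 for Oas2 and 3.11 for Trim30a. The share of all genes with a higher mean in WT was not counted, so 36 of 37 is not shown to be particular to these genes. These libraries belong to separate experiments, so the experiment and the treatment cannot be told apart and no test was made.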
